A study of Mus musculus with 2 samples.

Results

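The levels of 10 genes that mark retinal bipolar cells were examined in cultured mouse neural retinal progenitor cells (mNRPCs) and in retina tissue. The genes were chosen by name from textbook markers of bipolar cells and of their light response: Grm6, Trpm1, Nyx, Gnao1, Gng13, Pcp2, Prkca, Cabp5, Isl1 and Vsx1. All 10 were in the deposited table, among 31253 genes to which a symbol could be given. There was 1 library of each kind. The mNRPC library was made from C57BL/6 cells at passage 24, which the study's methods describe as grown out of dissociated neural retina of adult mice on Matrigel, in N2/B27 medium that contained the mitogen bFGF and CHIR99021, which blocks the kinase GSK3. The retina library was made from retina tissue of the same strain, with no culture or treatment named and no age in the labels. The mNRPC library therefore stands for 1 culture at 1 passage. No library was replicated, so no difference below has a replicate check, and no p-value was calculated.

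Bipolar cells carry the signal of photoreceptors to amacrine and ganglion cells. Cone bipolar cells come in ON and OFF types, whereas rod bipolar cells are ON cells. In the dark, glutamate from photoreceptors acts on the metabotropic receptor mGluR6 of ON bipolar dendrites, and the G protein Go then keeps the cation channel TRPM1 closed. In light glutamate release falls, TRPM1 opens and the cell depolarises. Bipolar cells arise late in retinal development.

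Levels were given in FPKM, fragments scaled to transcript length and library size, which corrects for transcript length and allows genes to be compared within a library. The log2 ratio of a gene was taken as log2 of (mNRPC FPKM + 1) over (retina FPKM + 1), and a gene was called lower or higher at a log2 ratio of at least 1 in size. Depth, estimated from the FPKM values, was about 6.59e+06 fragments for mNRPCs and 4.97e+06 for retina. A level of 3 estimated fragments was used as the limit of detection, which covers counting error only. The levels of 6 genes of dividing neural progenitors are given as description. They were chosen after their values were seen, so they cannot check the culture label. Of these genes 4 were higher in mNRPCs and 2 were within 2-fold, beside 24.5% higher among all genes with at least 1 FPKM in either library. Lhx2, a further factor of retinal progenitors, was lower in mNRPCs, as given below. In FPKM, the progenitor factor Sox2 read 231 in mNRPCs against 18.5 in retina, the cell cycle genes Ccnd1 371 against 4.26 and Mki67 35.6 against 0.0986. The filament gene Nes read 9.42 against 0.841. The eye field genes Pax6, at 123 against 101, and Six3, at 39.7 against 33.2, were those within 2-fold.

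All 10 bipolar cell genes had a lower value in mNRPCs than in retina and were called lower, 3 of them with a value of 0 in mNRPCs. For the 4 genes above the limit of detection in mNRPCs the log2 ratios ran from -5.83 for Gnao1 to -3.25 for Isl1. Among the 13780 genes with at least 1 FPKM in either library, 29.97% were lower and 24.5% higher by the same rule. The median log2 ratio of the 10 genes was -4.98, against -0.12 for all genes compared. With 0.1 added in place of 1 the median of the 10 genes was -6.69, and with curated transcripts only it was -4.15. The FPKM of the 10 genes summed to 6.70 in mNRPCs and to 843 in retina, so that the mNRPC sum was 0.794% of the retina sum. In retina all 10 reached 1 FPKM, as did 12639 of the 13780 genes compared. In mNRPCs only Prkca, Isl1 and Gnao1 did, beside 11076 of the genes compared. Grm6, Pcp2 and Vsx1 were listed at 0 in mNRPCs, Nyx, Cabp5 and Gng13 lay above 0 but under the limit of detection, and Trpm1, Gnao1, Prkca and Isl1 lay above it. A value of 0 can be a failed estimate, so such a gene is called listed at 0 only. In bulk RNA, fewer bipolar cells and less RNA per cell cannot be told apart.

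**Figure D1:**
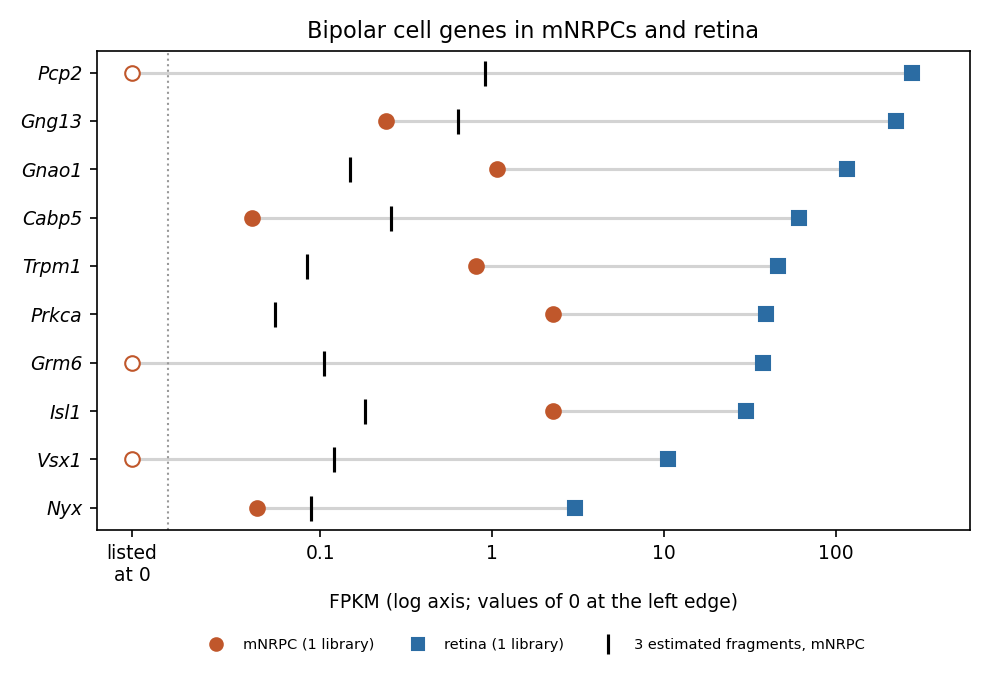
Level of each bipolar cell gene in the mNRPC library (circles, open where listed at 0) and the retina library (squares), in FPKM on a log axis, with a vertical tick at the mNRPC level worth 3 estimated fragments. Every square lies to the right of its circle, and only Gnao1, Trpm1, Prkca and Isl1 have a circle to the right of the tick.

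The receptor complex was described first. Grm6 encodes mGluR6, the glutamate receptor at the tips of ON bipolar dendrites. Grm6 was at 37.4 FPKM in retina, about 804 estimated fragments, and listed at 0 in mNRPCs, where the limit of detection was 0.105 FPKM. Most of the retina level of Grm6, 87.1%, was given to a predicted transcript, and the curated one held 4.81 FPKM. Both were listed at 0 in mNRPCs. With curated transcripts alone the log2 ratio of Grm6 was -2.54 in place of -5.26.

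Nyx encodes nyctalopin, a leucine-rich repeat protein of the postsynaptic membrane that TRPM1 needs for its place there. Nyx had the lowest level of the 10 genes in retina, 3.04 FPKM or about 78.3 fragments. In mNRPCs Nyx was at 0.0427 FPKM, about 1.46 fragments and under its limit of 0.0878 FPKM. Against that limit Nyx was at least 34.6-fold lower in mNRPCs. Because 1 was added to both values, its log2 ratio was the smallest in size of the 10, at -1.95, and Nyx was the single gene of the 10 that would not pass a log2 ratio of 2 in size.

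Trpm1 encodes the channel that carries the ON response. Trpm1 was at 45.7 FPKM in retina and at 0.800 FPKM in mNRPCs, about 30.1 fragments and well above its limit of 0.0830 FPKM. The difference was 57.2-fold. The gene has a long transcript of 5711 bp (NM_001039104.2) and a short one of 2928 bp (NM_018752.3). The long one held 91.8% of the retina level, 42.0 FPKM, and the whole mNRPC level. The short one was at 3.75 FPKM in retina and listed at 0 in mNRPCs. Within the cascade, then, the receptor was listed at 0 in the culture while the channel was read at a low level.

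Gnao1 encodes the alpha subunit of Go, which couples mGluR6 to the channel and is also abundant in other neurons. Gnao1 was at 116 FPKM in retina and at 1.06 FPKM in mNRPCs, about 33.6 fragments, a 109-fold difference. Its transcripts differed in their share. In retina NM_010308.3, of 2948 bp, was at 112 FPKM and held 96.4% of the gene, with NM_001113384.1, of 5526 bp, at 4.18 FPKM. In mNRPCs the order was the other way round, with NM_001113384.1 at 0.763 FPKM, 71.8% of the gene, and NM_010308.3 at 0.299 FPKM. Against retina, NM_010308.3 had a log2 ratio of -6.44 and NM_001113384.1 one of -1.55. The mNRPC values rest on about 5.82 and 27.8 fragments, which were divided between the transcripts by estimation.

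Both Gnao1 transcripts have a coding sequence of 1065 bases and encode 354 residues in the reference. The translated sequences differ first at residue 249 and are 92.9% identical. Their 25 different residues lie in the C-terminal part, where a G protein alpha subunit meets its receptor.

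**Figure D2:**
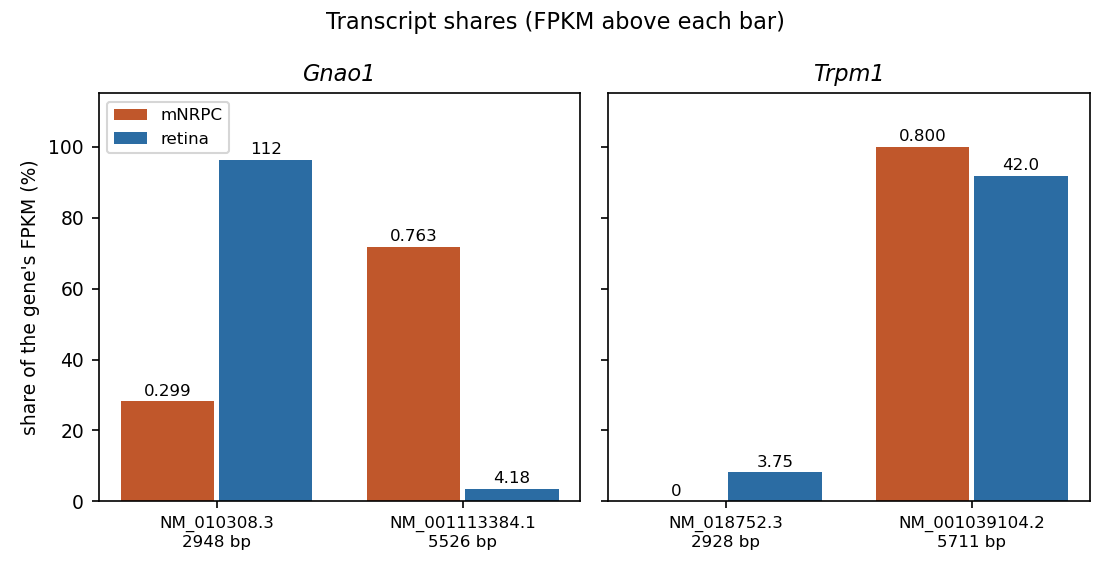
Share of each gene's FPKM held by the transcripts of Gnao1 and Trpm1, in percent, in the mNRPC and retina libraries, with the FPKM above each bar. The main Gnao1 transcript of retina, NM_010308.3, holds 96.4% there and 28.2% in mNRPCs, whereas the long transcript of Trpm1 leads in both libraries.

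Gng13 encodes a G protein gamma subunit that ON bipolar cells use with Go. Gng13 was the second highest of the 10 genes in retina, at 224 FPKM. In mNRPCs it was at 0.242 FPKM, about 1.14 fragments and under its limit of 0.633 FPKM, so that it was at least 354-fold lower. Pcp2, a modulator of Go with GoLoco motifs that is also known from Purkinje cells, was the highest in retina at 277 FPKM and was listed at 0 in mNRPCs. Pcp2 has a short transcript, and its limit of 0.903 FPKM was the highest of the 10. The log2 ratios of Pcp2, -8.12, and Gng13, -7.50, are set by the added 1 and the retina level.

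Prkca and Isl1 stood nearest to retina by share. Prkca encodes protein kinase C alpha, the usual antibody marker of rod bipolar cells, which other cells also make. Prkca was at 38.9 FPKM in retina and at 2.27 FPKM in mNRPCs, about 126 fragments, a 17.2-fold difference. Isl1 encodes a LIM homeodomain factor of ON bipolar cells that also marks ganglion cells and cholinergic amacrine cells. Isl1 was at 29.9 FPKM in retina and at 2.25 FPKM in mNRPCs, about 37.2 fragments, a 13.3-fold difference. Together Prkca and Isl1 made up 67.4% of the summed level of the 10 genes in mNRPCs and 8.16% in retina. Even so, both lay low among the genes detected in mNRPCs, at percentiles of 9.49 and 9.37, against 84.9 and 79.9 in retina.

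The study designed Q-PCR primers for both of these genes. They are shown because they mark which stretch of the mRNAs a PCR in this culture would read. Each matched the 3' UTR of the reference transcript, at positions 6075 to 6094 and 6163 to 6181 of 8409 in Prkca, and at positions 1705 to 1726 and 1771 to 1788 of 2516 in Isl1.
Prkca forward: caaagaggaggaagcagaag
Prkca reverse: ggaaagcccatgcagatta
Isl1 forward: catctagaggaagagcagaaac
Isl1 reverse: gcaaggcagtgaccaata

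Cabp5 and Vsx1 are genes of further bipolar types. Cabp5 encodes a calcium-binding protein of rod bipolar cells and some cone bipolar cells. Cabp5 was at 60.9 FPKM in retina and at 0.0399 FPKM in mNRPCs, about 0.467 fragments, and so at least 238-fold lower against its limit of 0.256 FPKM. Vsx1 encodes a paired-like homeodomain factor of cone bipolar cells. Vsx1 was at 10.6 FPKM in retina, about 199 fragments, and listed at 0 in mNRPCs with a limit of 0.120 FPKM. Cabp5 was thus not detectable in mNRPCs at this depth, and Vsx1 can be given no fold.

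The order of the 10 genes differed between the libraries. In retina Pcp2, Gng13 and Gnao1 led and held 73.2% of the summed level, followed by Cabp5, Trpm1, Prkca, Grm6, Isl1, Vsx1 and Nyx. In mNRPCs Prkca, Isl1, Gnao1 and Trpm1 led, in that order, and held 95.2%. Without replicates it cannot be said which neighbours in these orders differ.

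**Figure D3:**
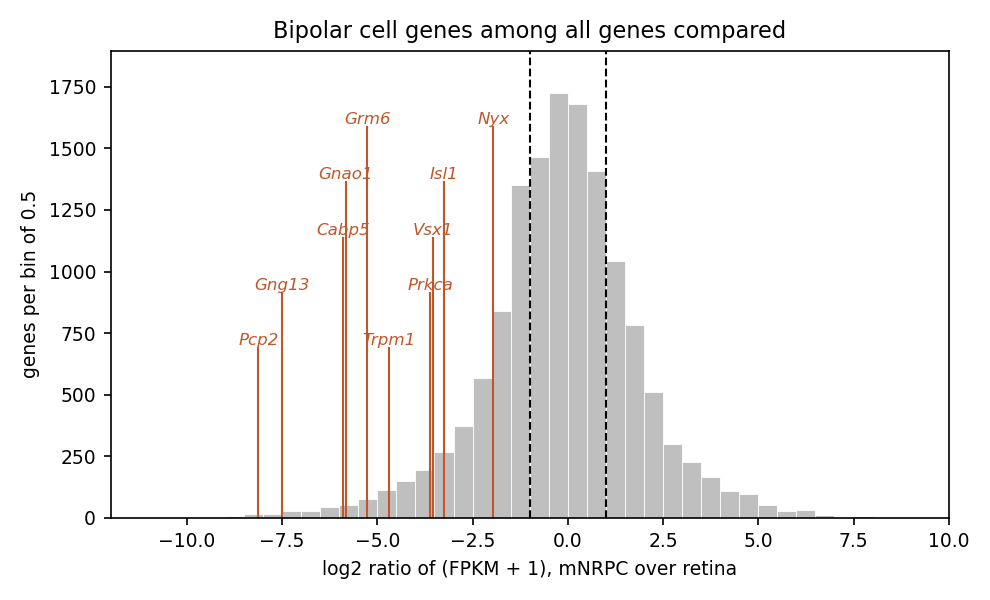
Number of genes by log2 ratio of (FPKM + 1), mNRPC over retina, for the 13780 genes compared, in bins of 0.5, with the 10 bipolar cell genes as vertical lines (their heights carry no value) and dashed lines at -1 and 1. All 10 lines lie left of the lower dashed line, with Pcp2, listed at 0 in mNRPCs, at -8.12 farthest out and Nyx at -1.95 nearest to it.

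The sequence around the start site of the 10 genes was searched for the core letters that OTX and CRX homeodomain factors bind, since Otx2 is a regulator of bipolar genes and was low in mNRPCs as given below. Windows from 250 bases before to 50 after the start were taken from RefSeq (GRCm38.p6), and all 10 genes had a window. For each gene only the most upstream window was searched. Pcp2 had 4 windows, and Trpm1 and Gng13 had 2 each, so a match in their other windows would be missed. TAATCC, or its reverse complement GGATTA, occurred in the windows of Trpm1, Isl1 and Cabp5, 3 of 10, against 7.15% of 27025 genes. Another homeodomain core, TAATTA, occurred in 0 of 10 and in 5.32% of all genes. The E-box core CANNTG occurred in 9 of 10, all but Cabp5, and in 72.1% of all genes. TAATCC and TAATTA share the letters TAAT, and TAATTA and CANNTG each equal their own reverse complement. A match describes letters only, and binding was not measured.

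The 3 windows with a match are shown 5′ to 3′ on the strand of the gene, with the TAATCC or GGATTA letters in capitals. Trpm1 lies at chr7:64153585-64153884 on the plus strand, the more upstream of its windows in the table, with its match 34 bases before the start. Isl1 lies at chr13:116309639-116309938 on the minus strand, with the match 177 bases before the start. Cabp5 lies at chr7:13397905-13398204 on the plus strand and has a pair of matches, 160 and 41 bases before the start.
Trpm1: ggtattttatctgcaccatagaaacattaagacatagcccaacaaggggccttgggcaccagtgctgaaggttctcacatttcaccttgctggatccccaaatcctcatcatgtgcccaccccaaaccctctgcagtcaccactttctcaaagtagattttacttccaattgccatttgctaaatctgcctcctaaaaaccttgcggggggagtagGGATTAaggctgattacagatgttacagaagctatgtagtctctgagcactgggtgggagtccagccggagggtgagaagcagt
Isl1: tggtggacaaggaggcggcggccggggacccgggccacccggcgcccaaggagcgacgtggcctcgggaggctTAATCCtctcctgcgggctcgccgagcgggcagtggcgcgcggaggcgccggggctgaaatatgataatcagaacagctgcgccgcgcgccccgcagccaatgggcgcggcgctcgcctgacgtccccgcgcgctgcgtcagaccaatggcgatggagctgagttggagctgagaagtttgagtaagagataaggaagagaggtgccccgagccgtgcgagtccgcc
Cabp5: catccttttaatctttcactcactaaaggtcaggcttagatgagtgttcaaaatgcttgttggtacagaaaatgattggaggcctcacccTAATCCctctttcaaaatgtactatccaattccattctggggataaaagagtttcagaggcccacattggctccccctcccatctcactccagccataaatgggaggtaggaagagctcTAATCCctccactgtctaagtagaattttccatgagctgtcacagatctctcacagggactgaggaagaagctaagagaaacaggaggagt

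Other genes of the mGluR6 cascade were lower in mNRPCs as well, 6 of 7 genes, beside 29.97% of all genes compared, with a median log2 ratio of -4.62. Gnb5, a G protein beta subunit that pairs with RGS proteins, had the highest retina level, 410 FPKM, and was at 15.1 FPKM in mNRPCs, a log2 ratio of -4.67. Rgs9bp, which anchors RGS proteins that switch off the G protein, was at 205 FPKM in retina and 0.144 FPKM in mNRPCs. Gnb3, the beta subunit of ON bipolar and cone cells, was at 197 FPKM in retina and listed at 0 in mNRPCs. The remaining gene, Lrit3, a membrane partner of nyctalopin, was below 1 FPKM in both libraries. These genes thus held the same direction as the 10 bipolar cell genes, though Gnb5 and Rgs9bp also serve photoreceptors.

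Of 12 other transcription factors of bipolar cells, 10 were lower, 1 was within 2-fold and 1 was higher, beside 29.97% lower and 24.5% higher among all genes compared. Their median log2 ratio was -3.37. Otx2, needed for bipolar and photoreceptor fate, was at 119 FPKM in retina and 0.0713 FPKM in mNRPCs, at least 563-fold lower. Neurod4, a bHLH factor of bipolar genesis, was at 57.3 FPKM in retina and 0.0263 FPKM in mNRPCs. The levels of Otx2 and Neurod4 were both under the limit of detection in mNRPCs. The higher gene was Irx5, an Iroquois factor of some cone bipolar cells, at 5.20 FPKM in mNRPCs and 1.80 in retina. Its log2 ratio of 1.15 fell to 0.87 when both libraries were rescaled to a common FPKM sum.

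All 16 other subtype and receptor genes of bipolar cells were lower, beside 29.97% of all genes compared, with log2 ratios from -6.13 to -1.06 and a median of -2.89. Scgn, a calcium-binding protein of cone bipolar cells, was at 69.0 FPKM in retina and listed at 0 in mNRPCs. Gabrr2 and Gabrr1 encode subunits of the GABA receptor at bipolar terminals. Gabrr2 was at 43.5 FPKM in retina and listed at 0 in mNRPCs. Gabrr1 was at 36.2 FPKM in retina and 0.0202 FPKM in mNRPCs, under the limit of detection. At the other end, Nnat was at 19.7 FPKM in retina and still at 8.97 FPKM in mNRPCs.

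Each of the 10 genes but Nyx and Vsx1 was set beside its gene family, in 8 families. In 5 of the 8 families the bipolar gene was the member with the highest retina level, and in none of the 7 families with a gene above the limit of detection in mNRPCs was it the highest there. Among G protein alpha subunits, 3 of 10 were lower, 4 within 2-fold and 3 higher, shares near the 29.97% and 24.5% of all genes compared. Gnas, the stimulatory subunit, led in both libraries, with 655 FPKM in mNRPCs and 416 in retina. Gnao1 was next in retina, before the inhibitory subunit Gnai2 with 70.6 FPKM. In mNRPCs Gnai2 was at 206 FPKM, and Gnai3, another inhibitory subunit, at 79.0 FPKM against 9.50 in retina. Gna12 was also called higher, with a log2 ratio of 1.23 that fell to 0.78 after rescaling to a common sum. The culture thus held 206 FPKM of Gnai2 beside 1.06 FPKM of Gnao1.

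Among G protein gamma subunits 8 of 12 were lower and 4 higher, beside the same 29.97% and 24.5%. Gngt1 and Gngt2, the rod and cone transducin subunits, were at 3636 and 132 FPKM in retina, with Gng13 between them. In mNRPCs Gngt1 and Gngt2 were at 0.255 and 0.309 FPKM, both under the limit of detection. Gng5 was the highest in mNRPCs, at 477 FPKM against 63.9 in retina. Gng10, Gng12 and Gng8 were the other higher ones, with log2 ratios of 2.77, 2.97 and 2.87. In the protein kinase C family 6 of 9 were lower and 2 higher, the latter again near the share of all genes. Prkca led in retina, before Prkcz at 30.1 and Prkce at 15.7 FPKM, whereas Prkci at 46.4 and Prkcd at 16.6 FPKM led in mNRPCs and were the higher ones, with log2 ratios of 1.57 and 2.18. In mNRPCs Prkci was thus read at 46.4 FPKM and Prkca at 2.27 FPKM.

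Of 8 metabotropic glutamate receptors, 5 were lower, Grm6 among them, beside 29.97% of all genes compared. Of the others 1 was within 2-fold and 2 were below 1 FPKM in both libraries. In mNRPCs 7 of the 8 were listed at 0, including the 2 that were also below 1 FPKM in retina. The share of all genes listed at 0 is not given here. Grm6 led in retina, with Grm8 next at 5.63 FPKM and Grm2 at 3.96 FPKM. Grm7 was the only one read in mNRPCs, at 0.885 FPKM against 2.51 in retina. In the TRPM channel family Trpm1 led in retina, before Trpm3 at 25.8 and Trpm7 at 18.2 FPKM. In mNRPCs Trpm7, a channel with a kinase domain, led at 13.7 FPKM, a log2 ratio of -0.39. Trpm1 was therefore low in a culture that held Trpm7 within 2-fold of its retina level.

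No gene of the CaBP family was above the limit of detection in mNRPCs. In retina Cabp4, of photoreceptor terminals, led at 196 FPKM, followed by Cabp5 and by Cabp1 at 59.4 FPKM. Among LIM homeodomain genes 7 of 12 were lower, beside 29.97% of all genes compared, and 5 were below 1 FPKM in both libraries. Isl1 led in retina, before Lhx2 at 15.9 and Lhx3 at 6.12 FPKM, and Lhx2, a factor of retinal progenitors and Müller glia, led in mNRPCs at 3.06 FPKM. Of 7 genes with GoLoco motifs 5 were lower and 2 higher, the latter near the 24.5% of all genes. Pcp2 led in retina, before Gpsm2 at 111 and Gpsm1 at 53.8 FPKM, and Gpsm2, which orients the mitotic spindle, led in mNRPCs at 37.9 FPKM. The higher ones were Rgs12, at 5.49 FPKM against 2.07 in retina, and Rgs14, at 1.11 FPKM and listed at 0 in retina. The log2 ratio of Rgs12, 1.08, fell to 0.77 after rescaling to a common sum.

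**Figure D4:**
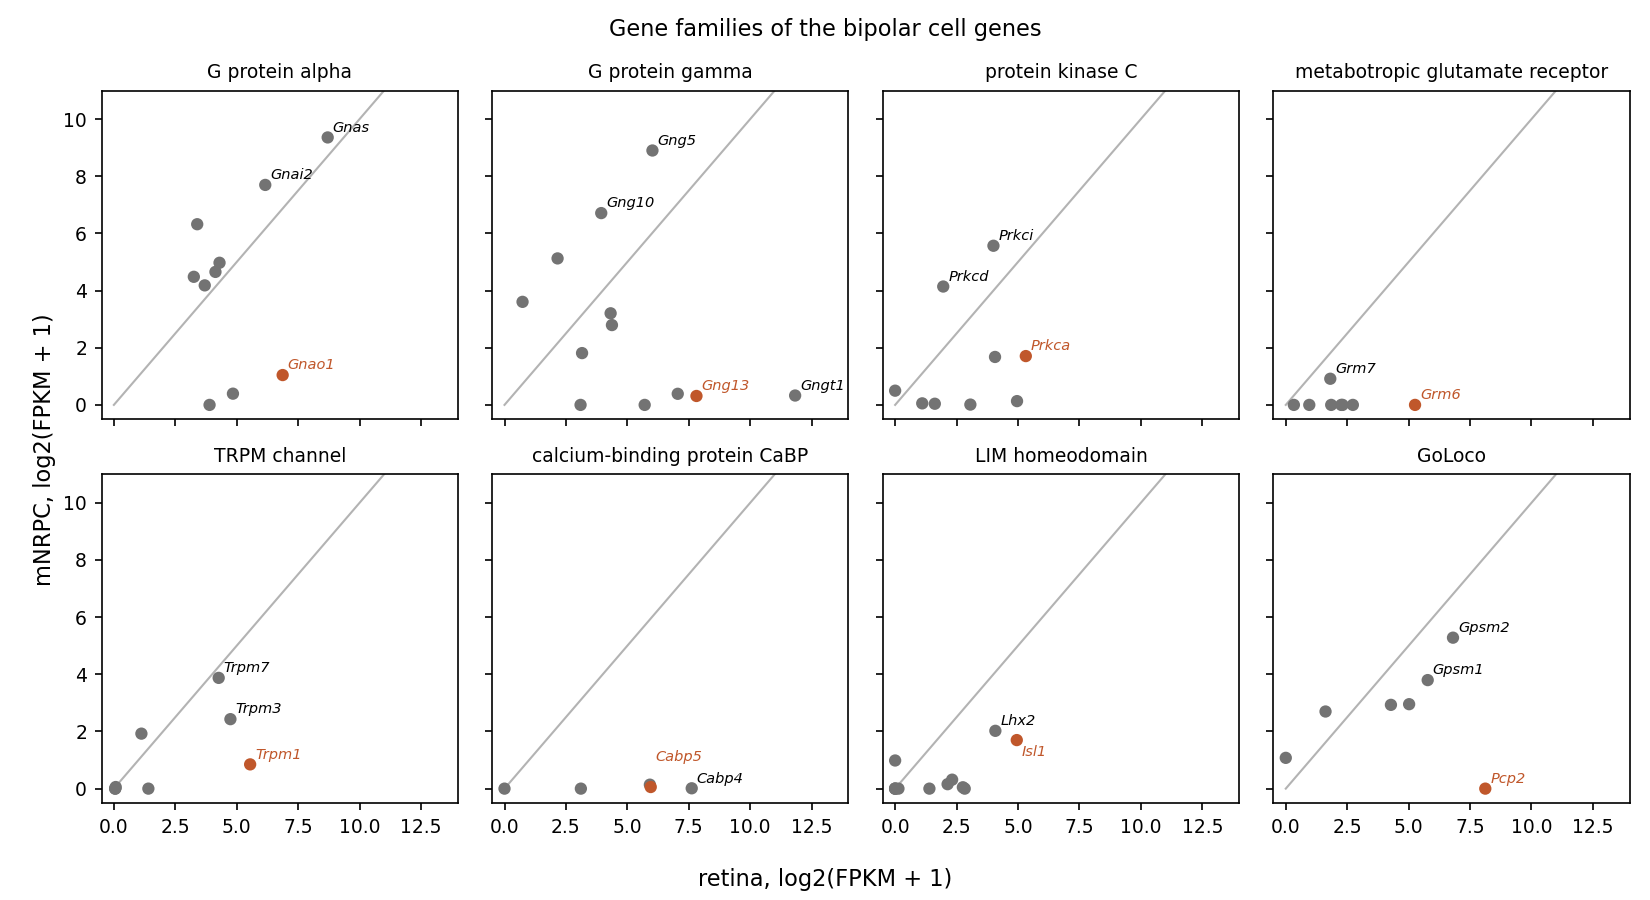
Level of each family gene in mNRPCs (vertical axis) against retina (horizontal axis), both as log2 of (FPKM + 1), in 8 gene families, with the bipolar cell gene in orange and the line of equal levels in grey. The bipolar genes lie below the line in every panel, while Gnai2, Gng5 and Prkci lie above it.

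Most markers of other retinal cells were lower in mNRPCs, with exceptions among amacrine and horizontal cell genes. The counts stand beside 29.97% lower among all genes compared. Of 19 rod genes 19 were lower, and their mNRPC level was 0.0509% of the retina level at the median, with a range from 0.00702% to 4.95%. Of the 19, 14 were above the limit of detection in mNRPCs, and Gngt1, at the low end of that range, was under it. Of the bipolar cell genes above the limit of detection, Gnao1 was at 0.916% of its retina level, Trpm1 at 1.75%, Prkca at 5.83% and Isl1 at 7.50%. At the rod median each of the 10 bipolar cell genes would hold 0.0528 to 1.19 fragments in mNRPCs, under the limit, so a gene above the limit had to lie above that median. All 8 ganglion cell genes were lower, with a sum of 4.79 FPKM in mNRPCs and 549 in retina. Of these, Pou4f1 and Pou4f2, which share cells with Isl1, were at 0.0887 and 0.0573 FPKM in mNRPCs, both under the limit of detection. The neurofilament genes Nefm and Nefl of the same list were above the limit of detection in mNRPCs, at about 66.0 and 31.2 estimated fragments, or 6.66% and 0.673% of their retina levels. Chat, the marker of the cholinergic amacrine cells that express Isl1, was listed at 0 in mNRPCs, while Gad2, of GABAergic amacrine cells, was at 3.05 FPKM against 11.1 in retina. Gad1 and Slc32a1 of the same list were under the limit of detection in mNRPCs, at 0.0858 and 0.0521 FPKM against 103 and 35.5 in retina. Of 9 amacrine genes 7 were lower, Slc6a9 was within 2-fold, and Tfap2a, a transcription factor of amacrine cells, was higher, at 31.3 FPKM in mNRPCs and 7.08 in retina. All 7 Müller cell genes were lower, and of 5 horizontal cell genes 2 were lower, 1 was within 2-fold and 2 were below 1 FPKM in both libraries. The part of other retinal cells in the mNRPC levels of Isl1, Prkca, Gnao1 and Trpm1 was not tested.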

How the data were processed

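RNA sequencing of 2 mouse samples, 1 mNRPC and 1 retina library, was used, grouped by the labels. The authors deposited FPKM values for 106754 RefSeq transcripts. The study's methods name Bowtie 2 for alignment and eXpress for FPKM, and the submitters' processing notes name TopHat2 2.0.10 and GRCm38.p3. Which of them made these values, and the annotation release, are not given in the sources used here. Accessions were matched without version to RefSeq (GRCm38.p6) and then GENCODE M21, which named 74280 rows (69.6%), and rows of a gene were summed. Values below 1e-06 were read as 0. Genes with at least 1 FPKM in either library were compared, with 1 added before log2, as in the study, which understates changes of low genes. Reads shared by similar genes were divided by estimation. Depth was estimated from the amount at which low values multiplied by length gather (transcripts of at least 1500 bp). That amount was looked for within a set range. The step was run on simulated data whose depths lay inside that range, so the simulation cannot show an error beyond it. Fragment numbers, limits of detection and bounds on folds all rest on this estimate. Python 3.11.15, numpy 2.4.6 and pandas 2.3.3 were used. Rescaling, other pseudocounts, transcript choices, thresholds and filters were tried as alternatives.

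Named were all 10 genes, the 3 genes of each related list with the highest retina level, every list gene called higher in mNRPCs, and the leading gene of each family in each library. Lrit3, Nnat, the 6 genes of dividing neural progenitors and the genes named beside other cell types fall outside this rule. They were chosen after their values were seen. A gene that the rule names and that enters the list counts is not reported here. Members and lists were chosen with earlier results of these data known.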

Additional observations from a re-analysis of the deposited data

How the results depend on the processing

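In every scaling, pseudocount and transcript choice tried, 10 of the 10 bipolar cell genes were lower in mNRPCs by at least 2-fold, and at a log2 threshold of 2 there were 9, without Nyx. All 80 alternative log2 ratios of the 10 genes were below 0, from -11.4 to -1.73. The median log2 ratio of the 10 genes, -4.98, became -5.99 after rescaling to a common FPKM sum, -6.69 with a pseudocount of 0.1, -6.61 with no pseudocount and low values set to the limit, and -4.15 with curated transcripts only. Rescaling to a common sum moved the median of all genes compared from -0.12 to -0.68, so that relative to it the 10 genes went from -4.86 to -5.31. The same rescaling raised the lower genes from 4130 to 6349, and the higher share of all changed genes fell from 44.9% to 30.2%. At a log2 threshold of 2 there were 1942 lower and 1547 higher genes. Grm6 had the widest dependence on transcript choice, from -5.26 to -2.54 with curated transcripts only.

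No paired analysis was possible because there was a single library on each side and thus no replicate to leave out. Depth limits the mNRPC levels of Nyx, Cabp5 and Gng13, which lie under 3 estimated fragments, while the values of 0 for Grm6, Pcp2 and Vsx1 can also be failed estimates. The estimated depth was 6.28e+06 to 6.59e+06 fragments for mNRPCs and 4.83e+06 to 5.23e+06 for retina over the minimum transcript lengths tried. Each of these estimates was looked for within the same set range.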
